A study of Mus musculus with 20 samples.

Results

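The COP9 signalosome is a protein complex whose subunits Gps1 (also called CSN1), Cops2, Cops3, Cops4, Cops5, Cops6, Cops7a, Cops7b and Cops8 were read here from ribosome footprints and input RNA of mouse hippocampus. The 9 genes were chosen by their membership of the complex, with earlier footprint, input and ratio values of these same libraries known. All 9 are among the 18054 genes of the deposited count table, and all 9 passed the filter on low counts in every comparison. Because the difference between knockout and wild type was part of that choice, it is given below as a description of these animals and not as independent evidence.

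The complex removes the ubiquitin-like protein NEDD8 from cullins, the scaffolds of cullin-RING ubiquitin ligases, and so takes part in switching these ligases between an active and an inactive state. Cops5 carries the metalloprotease site and pairs with Cops6, which has the same fold without the active site. The remaining subunits share a PCI domain, a fold also found in the proteasome lid and in the translation initiation factor eIF3, and Cops7a and Cops7b are alternative versions of a single position. Neurons use cullin-RING ligases to turn over synaptic and cell cycle proteins.

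Animals labelled Qtrt1-/- lack Qtrt1, which encodes the catalytic part of the tRNA-guanine transglycosylase, so that tRNAs for tyrosine, histidine, asparagine and aspartate go without queuosine in their anticodon. They were set against wild-type mice, with no strain or transgene given in the labels. There were 3 females of each genotype, aged 6 months and 21 days except for wild-type female 1 at 6 months and 22 days. The 2 males of each genotype were aged 6 months and 18 days (replicate 1) and 5 months and 16 days (replicate 2). Each of the 10 animals gave 1 footprint library, the RNA that ribosomes shielded from RNase I in a cycloheximide lysate, and 1 input library, cytoplasmic RNA of the same lysate, so replicates are separate animals.

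Totals ran from 5357812 to 15517982 counts over the footprint libraries and from 9000662 to 13637370 over the input libraries. Qtrt1 itself had 28 to 40 footprints in the wild-type females and 1 to 5 in the knockout females. It had 46 and 94 in the wild-type males and 3 and 10 in the knockout males, in the direction of the labels in every animal. Hippocampal markers were present in every library, with a summed footprint level of 937 to 1595 counts per 1000000 counts of a library (CPM) over 12 genes. Markers of neighbouring tissue differed between animals. The 12 choroid plexus markers had a summed footprint level of 154, 303 and 6012 CPM in females of wild type, against 9422, 7210 and 2241 without Qtrt1, and 8803 to 13371 in males. The 11 striatal markers reached 909, 367 and 799 CPM in females of wild type, against 245, 507 and 191 without Qtrt1, and 182 to 228 in males. None of these 23 markers was at 0 in any library. In bulk tissue, fewer cells of a type and less RNA per cell cannot be told apart.

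The sequences that follow show where the codon tables place footprints on the subunits, because those tables cover only short stretches of them. The deposited codon tables give footprints per codon of a transcript, with codons counted from 0 at the start codon. The codon letters matched the coding sequence of the named transcript in the GENCODE annotation of GRCm38 on 99.95% of 2296662 lines over the 10 tables. Each sequence spans 25 codons, 5′ to 3′ on the coding strand, and the capitals mark the codon with most footprints in that gene.

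Gps1, ENSMUST00000100134, codons 450 to 474, exonic, chr11:120788558-120788632, plus strand: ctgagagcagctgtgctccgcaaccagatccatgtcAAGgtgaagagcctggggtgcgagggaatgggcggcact
Cops3, ENSMUST00000019517, codons 314 to 338, exonic, chr11:59821306-59821380, minus strand: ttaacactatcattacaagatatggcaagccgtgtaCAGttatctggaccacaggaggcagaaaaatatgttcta
Cops7a, ENSMUST00000032220, codons 249 to 273, exonic and across an intron, chr6:124959604-124959839, minus strand: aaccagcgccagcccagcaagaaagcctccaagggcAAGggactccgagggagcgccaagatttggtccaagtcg

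Codon 462 of this Gps1 transcript held 32 of the transcript's 70 listed footprints, 45.7%. Only 11 of its 490 codons were listed, between codons 462 and 485. A further 10 footprints lay on codons 228 to 231 of ENSMUST00000208737 and 4 on codons 19 and 21 of ENSMUST00000172809. Codon 326 of Cops3 held 204 of 710 footprints, and codon 261 of Cops7a held 849 of 1106. Cops2 had 66 footprints on 3 codons, and Cops4, Cops5, Cops6, Cops7b and Cops8 had none listed. Of the 72 listed codons of these genes, 71 sat in a 9-codon window found in only 1 annotated coding transcript of the gene, so the tables describe stretches that set single transcripts apart and not whole genes. Whole-gene levels below therefore come from the count table.

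In the codon tables, Gps1 had 13, 8 and 8 footprints in the females of wild type, against 2, 3 and 4 in those without Qtrt1. It had 16 and 5 in wild-type males and 13 and 12 in knockout males. As CPM of the listed footprints of a library, these were 10.0, 7.04 and 5.56 against 1.21, 1.99 and 2.35 in females, and 5.28 and 4.66 against 8.77 and 10.3 in males. The knockout females were the lowest libraries on this scale, and the knockout males were the highest of the males. These few footprints come from the same libraries as the count table and are no second experiment.

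Per coding length, the subunits spanned a wide range of footprint levels in wild type. On the scale of CPM per 1000 codons, Cops7a averaged 923 ± 108 (SD, n = 5 animals) and Cops6 451 ± 110. Cops3 followed at 230 ± 18.3, then Cops2 at 188 ± 18.7, Cops4 at 178 ± 22.3, the catalytic subunit Cops5 at 164 ± 15.5 and Cops8 at 134 ± 30.6. Gps1, the largest subunit here at 526 codons, and Cops7b were lowest at 37.2 ± 4.01 and 36.7 ± 8.44. The ranges of Cops7a, Cops6 and Cops3 did not meet each other or that of Cops2, and the range of Cops8 did not meet that of Gps1. Cops2, Cops4, Cops5 and Cops8 ran into their neighbours in this order, as did Gps1 and Cops7b. The same order held in knockout animals except that Cops2 averaged above Cops3 (234 ± 36.7 and 231 ± 30.0) and Cops7b above Gps1 (34.0 ± 8.49 and 25.8 ± 7.68).

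**Figure D1:**
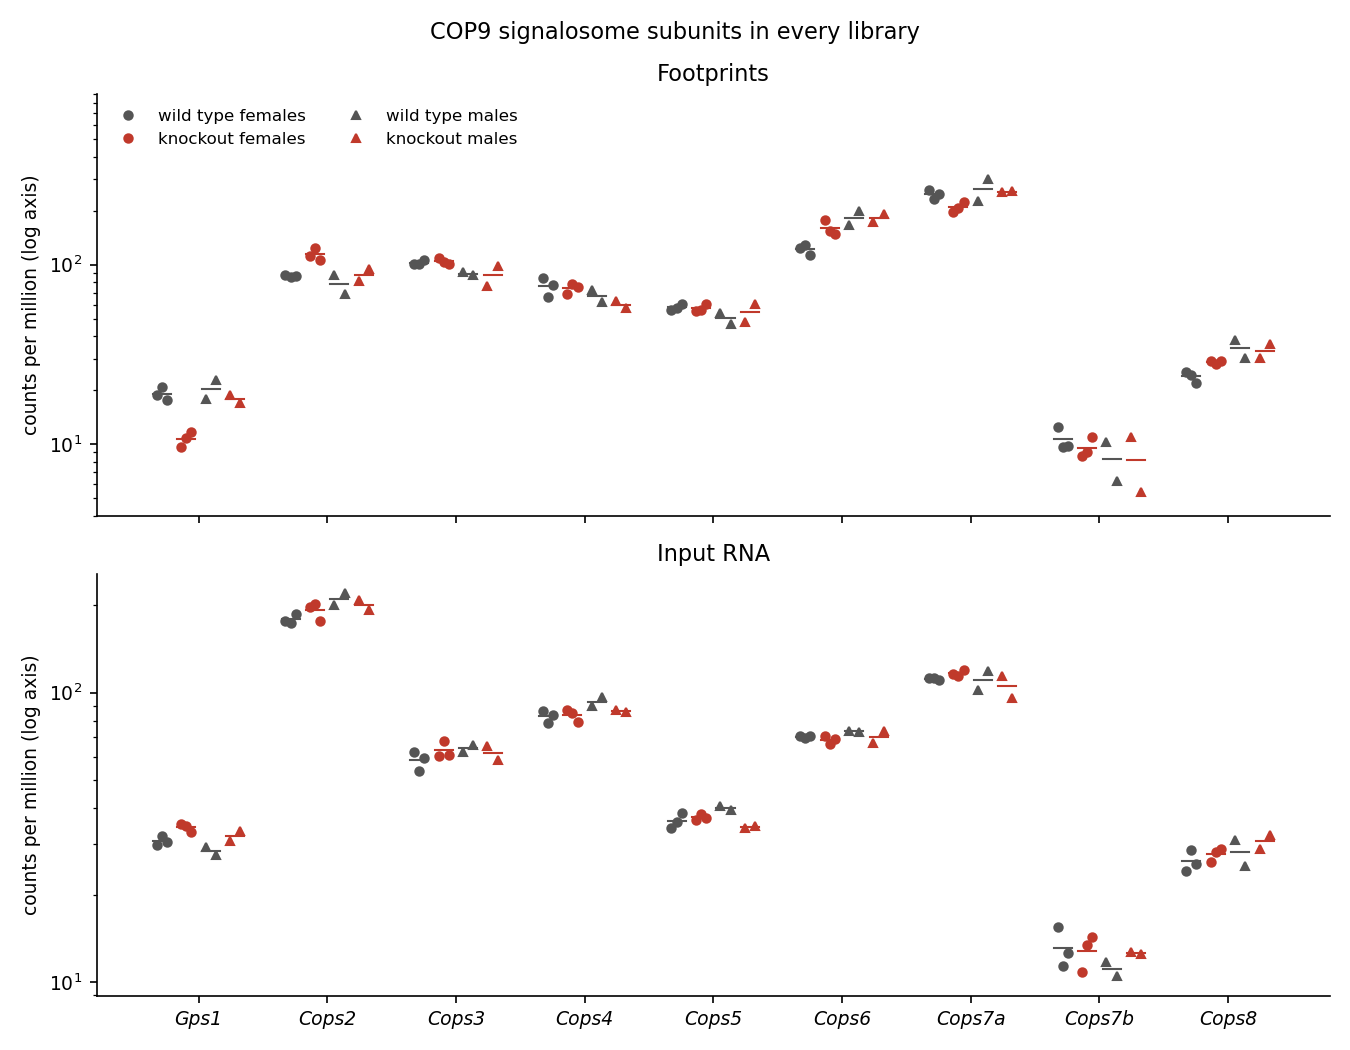
CPM (log axis) of the 9 subunits in every footprint library (upper panel) and every input library (lower panel); circles are females, triangles males, grey wild type, red knockout, and short lines are group means. Gps1 footprints of the 3 knockout females sit between 9.59 and 11.7, below the 17.0 to 22.6 of the other 7 animals, while Gps1 input shows no such gap.

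In wild-type animals the subunits differed in footprint level relative to their own input RNA. Relative to input, 5 of the 9 were higher in footprints and 2 lower by edgeR's quasi-likelihood test with Benjamini-Hochberg adjustment over all genes. Of 14146 genes tested, 75.3% passed, 37.0% higher and 38.3% lower, so a share of 7 in 9 is near that of genes in general. Cops7a had the highest ratio, at 1.40 ± 0.08 on the log2 scale (SE, adjusted p = 1.4e-12). Cops6, the partner of the protease, followed at 1.26 ± 0.07 (adjusted p = 1.53e-12), then Cops3 at 0.85 ± 0.07 (1.88e-09) and Cops5 at 0.72 ± 0.07 (2.55e-08). Cops8, the smallest subunit, was at 0.29 ± 0.09 (adjusted p = 0.00831). Cops2, whose protein contacts the cullin, had the lowest ratio at -1.02 ± 0.08 (adjusted p = 1.99e-10), and Gps1 was at -0.40 ± 0.08 (adjusted p = 0.00027). Cops4 at -0.09 ± 0.07 and Cops7b at -0.12 ± 0.17 did not pass. The median over the 9 was 0.29, against -0.01 over all genes tested. These ratios come from a fit that scales footprint and input libraries together. When each assay is scaled alone, as for the CPM printed here, the median gene lies at -0.17, Gps1 at -0.61 and Cops8 at 0.04 on the log2 scale. Relative to that median gene, Gps1 is at -0.44 and Cops8 at 0.21.

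**Figure D2:**
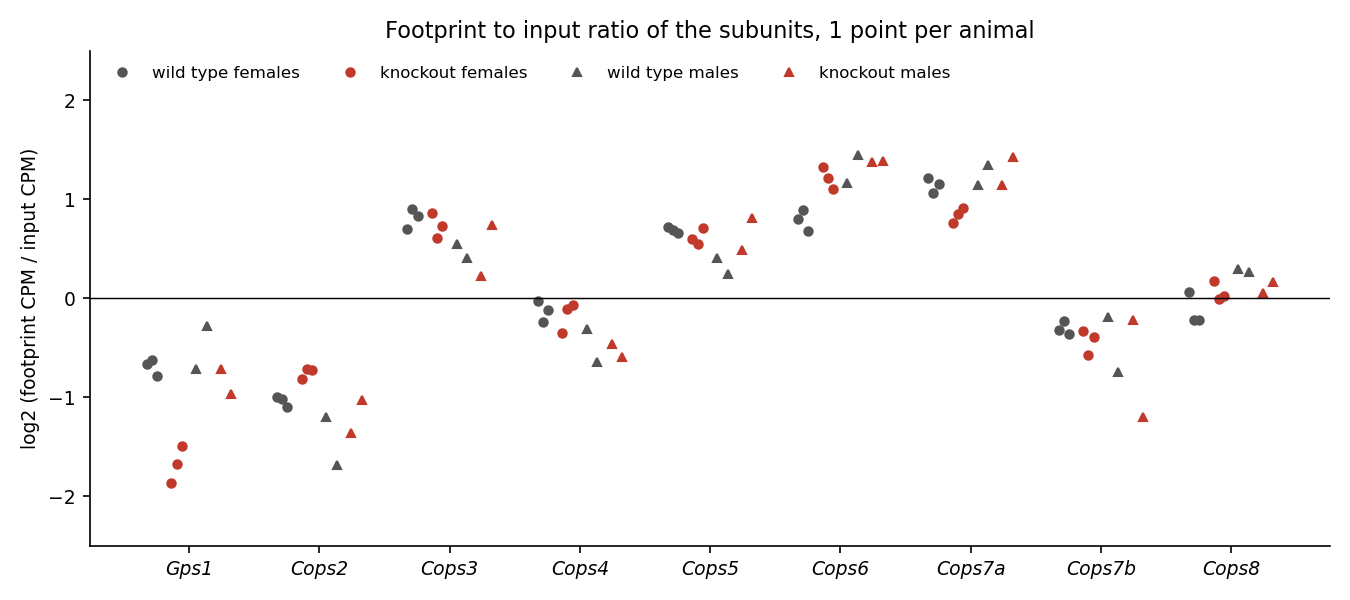
Log2 ratio of footprint CPM to input CPM of each subunit, 1 point per animal, with circles for females, triangles for males, grey for wild type and red for knockout. Cops7a and Cops6 lie above 0.6 and Cops2 below -0.7 in all 10 animals, and the 3 knockout females have the lowest Gps1 ratios, from -1.87 to -1.50.

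Gps1 was the subunit with the clearest genotype difference, and it was seen in female footprints. Wild-type females had 18.8, 20.7 and 17.7 CPM of Gps1 footprints (122, 118 and 125 counts), and knockout females had 9.59, 10.8 and 11.7 (79, 84 and 104 counts). The means were 19.1 ± 1.52 and 10.7 ± 1.06 CPM (SD, n = 3 each). The 3 knockout females lay below all 3 wild-type females and below all 4 males. Gps1 was lower by a log2 fold change of -0.83 ± 0.15 (SE, 95% interval from -1.16 to -0.50), which placed it among the lowest 2.68% of genes. That place is a description too, since the genes were chosen with these values known.

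Gps1 males showed no separation of the genotypes. Wild-type males had 17.9 and 22.6 CPM (290 and 123 counts) and knockout males 18.7 and 17.0 (146 and 103 counts). The log2 fold change was -0.16 ± 0.18 in males and -0.49 ± 0.12 over both sexes. The female difference exceeded the male one by -0.67 ± 0.23 on the log2 scale, a sex difference that was not called over all genes (edgeR adjusted p = 0.454). The male interval, from -0.54 to 0.23, overlapped the female one.

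Gps1 input RNA did not follow its footprints. Wild-type females had 29.8, 31.9 and 30.5 CPM of Gps1 input and knockout females 35.1, 34.5 and 33.0. Wild-type males had 29.3 and 27.4, and knockout males 30.8 and 33.3. In both sexes every knockout library lay above every wild-type library of that sex, by 0.16 ± 0.08 in females and 0.17 ± 0.10 in males on the log2 scale, and neither difference was called.

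The ratio of Gps1 footprints to input was 0.631, 0.650 and 0.581 in the females of wild type, against 0.273, 0.314 and 0.354 in those without Qtrt1. It was 0.609 and 0.825 in wild-type males and 0.608 and 0.511 in knockout males. Male and female knockout ratios lay below those of wild type of the same sex, with no overlap, although the male gap was between 0.608 and 0.609. The log2 fold change of the ratio was -0.97 ± 0.15 in females, -0.31 ± 0.18 in males and -0.64 ± 0.12 over both sexes. By p-value Gps1 ranked 3 of 14146 genes in females, in a fit without the pairing of libraries by animal. The genes were chosen with these values known, so the rank is a description and no measure of strength.

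The partners as a group did not share the lower footprint level of Gps1, though Cops7a was lower as well. Cops6 footprints were 124, 129 and 113 CPM in the females of wild type, against 177, 154 and 148 in those without Qtrt1, with a log2 fold change of 0.39 ± 0.11 (edgeR adjusted p = 0.0487). In males they were 165 and 200 CPM against 174 and 192, and the log2 fold change was 0.01 ± 0.13. All knockout females lay above the wild-type females, and knockout females 2 and 3 lay below the males. Cops6 input was 69.7 to 71.0 CPM in the females of wild type, against 66.3 to 70.5 in those without Qtrt1, and its ratio differed by 0.44 ± 0.12 on the log2 scale.

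Cops2 also had more footprints in knockout females, at 112, 124 and 107 CPM against 88.1, 85.9 and 86.9 in wild type. All 3 knockout females lay above the wild-type females, and above the 68.7 to 94.7 CPM of the 4 males. The log2 fold change was 0.39 ± 0.11 in female footprints, 0.16 ± 0.14 in male footprints and 0.10 ± 0.07 in female input. Cops2 lay just over the threshold in female footprints (edgeR adjusted p = 0.0535). It was called there in 5 of 18 alternatives, namely without wild-type male 1 (edgeR adjusted p = 0.0238), without wild-type male 2 (0.0231), with no filter on low counts (0.0398), in a fit of the female libraries alone (0.0143) and by DESeq2 (0.0311). Over all genes, the calls in these 5 settings ran from 1148 to 1849, against 928 in the main fit. Over both sexes Cops2 was called in footprints without wild-type male 1 (0.38 ± 0.09). In that fit the calls over all genes rose from 1 to 1453.

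Cops7a had 261, 234 and 246 CPM in wild-type female footprints and 196, 206 and 224 in knockout females, in the same direction as Gps1. Knockout females lay below the wild-type females without overlap, also in the ratio, at 1.69 to 1.88 against 2.09 to 2.33. The log2 fold change was -0.24 ± 0.11 in female footprints and -0.04 ± 0.14 in males, and it was not called. Cops8 had 25.4, 24.4 and 21.8 CPM in the females of wild type, against 29.2, 28.0 and 29.2 in those without Qtrt1, with a log2 fold change of 0.27 ± 0.14 that was not called.

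The catalytic subunit Cops5 differed little between female genotypes, at 56.0 to 60.4 CPM in wild-type footprints and 55.1 to 60.2 in knockout. Its log2 fold change was -0.02 ± 0.12. In male input both knockout libraries (34.1 and 34.7 CPM) lay below the wild-type ones (39.4 and 40.4), with a log2 fold change of -0.21 ± 0.09 that was not called. Cops3 and Cops4 had female footprint differences of 0.03 ± 0.11 and -0.04 ± 0.12, and Cops7b, the least abundant, of -0.16 ± 0.25.

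**Figure D3:**
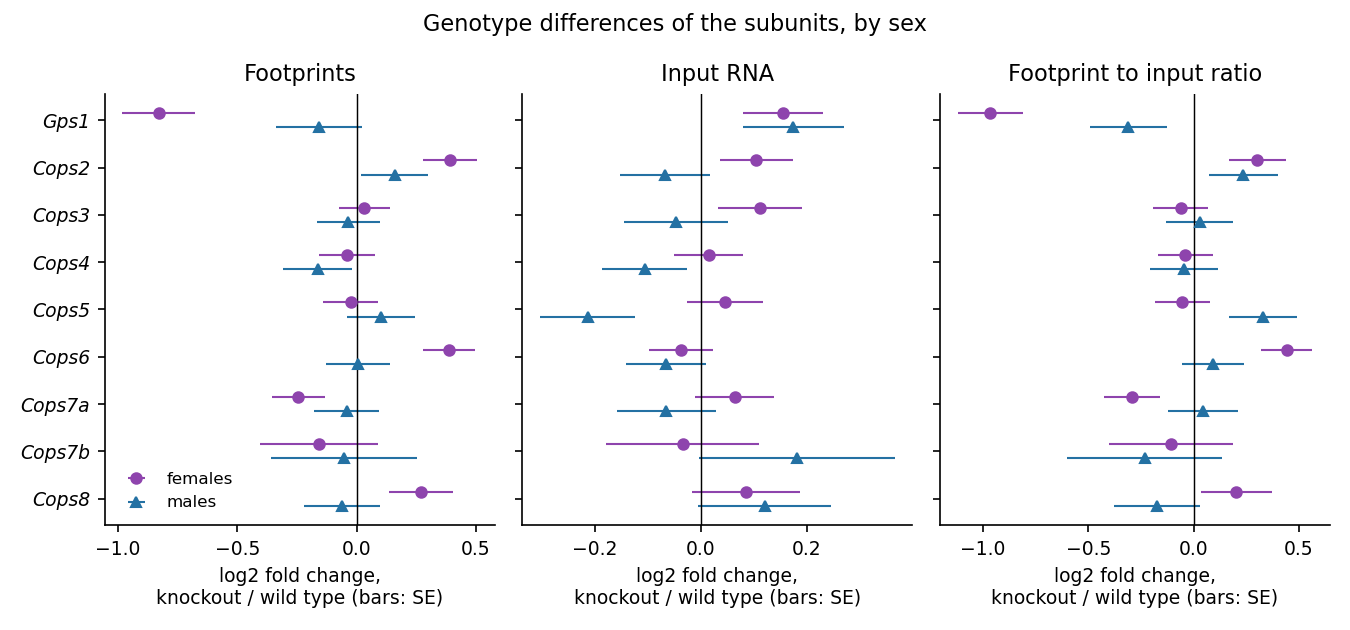
Log2 fold change of knockout against wild type for each subunit in footprints, input RNA and the ratio of footprints to input, with circles for females, triangles for males and bars for 1 standard error; the horizontal scales differ between panels. Gps1 in females lies far to the left in footprints (-0.83) and in the ratio (-0.97) and to the right of 0 in input (0.16), and the other subunits stay between -0.29 and 0.44 in females.

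In calls over all genes at an adjusted p under 0.05, 2 of the 9 subunits passed in female footprints, Cops6 higher and Gps1 lower. Over all genes, 7.06% passed, 2.81% higher and 4.25% lower. In male footprints 0 subunits and 0% of genes passed, over both sexes 0 subunits and 0.00761% of genes, and for the sex difference 0 subunits and 0% of genes. In female input RNA 0 subunits passed against 3.48% of genes, in male input 0 against 0%, over both sexes 0 against 0.734%, and for the sex difference 0 against 0%. In the female ratio Gps1 was the 1 subunit that passed, against 0.0424% of genes, and 0 subunits passed in the male ratio, over both sexes or for the sex difference, where 0% of genes passed. Qtrt1 itself was tested and not called in male footprints and male input, with 2 males per genotype. The 0 calls in males therefore do not show that a difference was absent.

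The footprint and input libraries of an animal are paired by the animal number in the labels. With that pairing kept as a block, 2 subunits passed in the female ratio, Gps1 (-0.97 ± 0.17) and Cops6 (0.44 ± 0.11), against 2.79% of genes. Over both sexes Gps1 then passed (-0.63 ± 0.13), against 0.806% of genes.

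Counted by whether the libraries of the genotypes overlapped, 5 of 9 subunits did not overlap in female footprints, 3 higher and 2 lower in knockout, against 34.9% of all genes. In female input 2 did not overlap against 25.2%, and in the female ratio 4 against 30.1%. In males the counts were 0 in footprints against 26.9%, 4 in input against 37.9% and 3 in the ratio against 26.8%. Separation of this kind is common among genes with so few animals, and nothing is read from these counts.

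Set against its partners within each library, Gps1 was lowest in the knockout female footprints. The log2 CPM of Gps1 minus the mean log2 CPM of its 8 partners was -1.85, -1.59 and -1.83 in the females of wild type, against -2.80, -2.65 and -2.56 in those without Qtrt1. It was -1.93 and -1.44 in wild-type males and -1.77 and -1.93 in knockout males. In input the same quantity was -0.91 to -0.74 in the females of wild type, against -0.78 to -0.65 in those without Qtrt1, so the ranges met there. Gps1 made up 2.40% to 2.85% of all signalosome footprint counts in wild-type females and 1.25% to 1.52% in knockout females, against 2.07% to 2.75% in males.

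**Figure D4:**
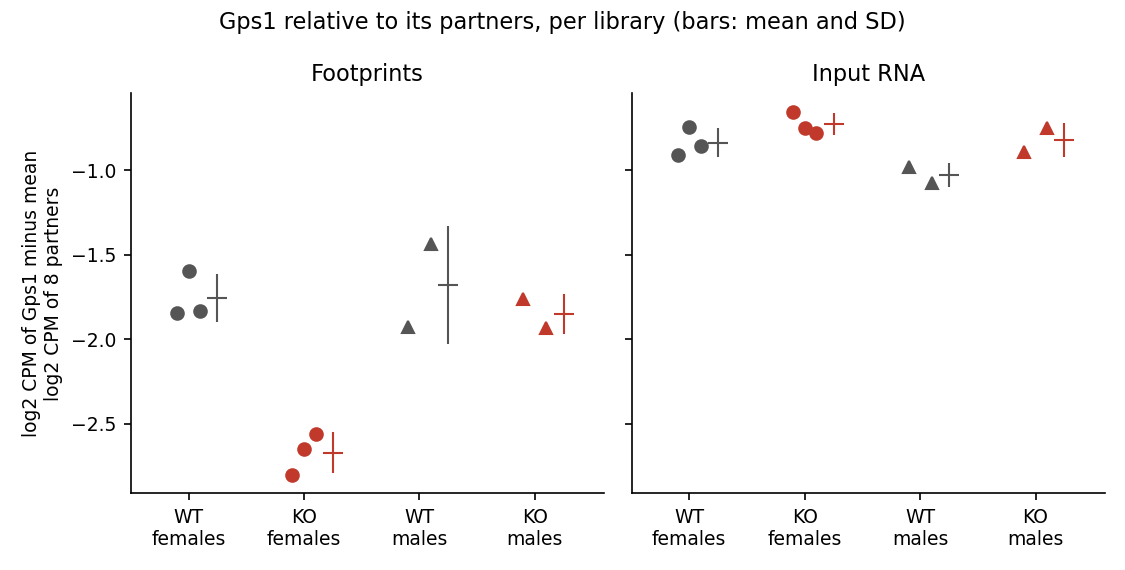
Log2 CPM of Gps1 minus the mean log2 CPM of its 8 partners in each library, with circles for females, triangles for males, grey for wild type and red for knockout, and group means with SD beside the points. In footprints the knockout females lie at -2.80 to -2.56 and all other animals at -1.93 or above, and in input the groups lie between -1.08 and -0.65.

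Across animals, no shared movement of Gps1 with its partners as a group was detected. The knockout females stood apart in Gps1 footprints, so relations were read in the other 7 animals. There 6 of 8 partners had a negative Pearson r with Gps1, with a median of -0.20. Cops2 had r = -0.85 (exact permutation p = 0.0163, two-sided, adjusted p = 0.26 over 16 relations in footprints and input). Its Spearman rho was -0.68 (exact permutation p = 0.11), and r was -0.79 without the 2 animals farthest from the Gps1 median. Cops7a had r = 0.54 (exact permutation p = 0.213, adjusted p = 0.395) and rho = 0.32 (exact permutation p = 0.498), and r was 0.16 without the 2 farthest animals. None of the 16 relations passed in these 7 animals. Over all 10 animals 2 passed by Pearson r, Cops2 (negative) and Cops7a (positive), both in footprints. By Spearman rho Cops2 passed (permutation adjusted p = 0.0269) and Cops7a did not (0.104). These 10 points include the gap between the knockout females and the rest, and on residuals from the 4 group means neither passed (permutation adjusted p = 0.159 for both). In input RNA, 6 of 8 partners had a negative r over 10 animals, from -0.56 for Cops4 to 0.30 for Cops8, and 0 passed (lowest permutation adjusted p = 0.357).

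**Figure D5:**
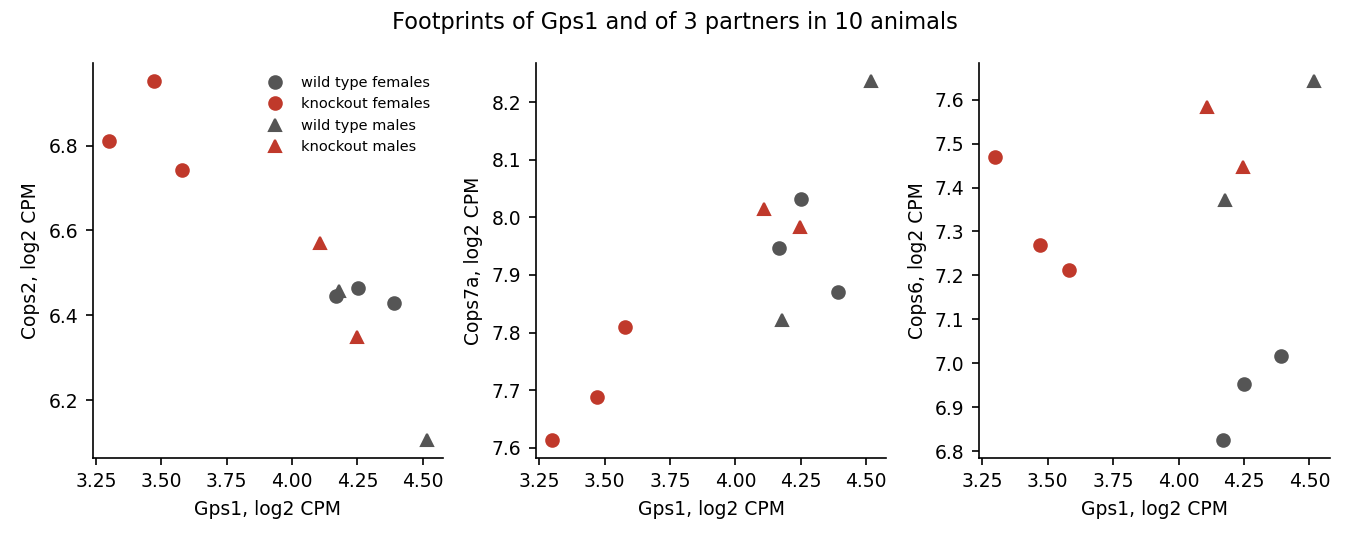
Log2 CPM of Gps1 footprints (horizontal) against Cops2, Cops7a and Cops6 footprints (vertical) in 10 animals, with circles for females, triangles for males, grey for wild type and red for knockout. The knockout females form a separate cluster at low Gps1, with high Cops2 and low Cops7a. In Cops6 the wild-type females lie lowest, below both the knockout females and the males.

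The genes whose log2 CPM over the 10 footprint libraries was most like that of Gps1 were Cacnb3 (Pearson r 0.97), Cck (0.97), Snx15 (0.96), Fbxl19 (0.96) and Armcx3 (0.96), of 13142 genes compared. Cacnb3 encodes a calcium channel subunit and Cck the neuropeptide cholecystokinin. These 10 libraries share the gap of the knockout females, and the values are a description of likeness. Over the input libraries the most alike were Dhx32 (0.95), Bbs2 (0.93), P3h3 (0.92), Snx27 (0.92) and Patz1 (0.90), so the lists for footprints and input shared no gene among the first 5.

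Markers of other tissue moved with the female groups beside these values. The 10 meningeal fibroblast markers summed to 242 to 391 CPM in wild-type female footprints and 428 to 543 in knockout females, and the 8 cortical markers to 566 to 701 and 380 to 457, with no overlap in either list. The sums of the 12 hippocampal markers did not overlap either, at 937 to 1402 CPM in wild-type females and 1430 to 1500 in knockout females. Their mean log2 level (of CPM plus 1) did overlap, at 5.32 to 6.00 and 5.83 to 5.99. Their input sums overlapped too, at 622 to 886 and 855 to 911 CPM. Of all single genes, 34.9% did not overlap in female footprints. Choroid plexus and striatal sums overlapped between the genotypes. Gene by gene, all 12 choroid plexus markers were higher in knockout female footprints (median log2 fold change 1.58, 1 called). All 11 striatal markers were lower (median -1.30, 3 called). Called higher were 6 of 10 meningeal and 2 of 8 astrocyte markers, and called lower 3 of 8 cortical markers. Of the hippocampal markers 1 was called higher and 1 lower. Over all genes 2.81% were called higher and 4.25% lower. The part of these markers in the Gps1 and Cops6 values was not tested by an independent measure. Without wild-type females 1 and 2, the lowest in choroid plexus markers, the Gps1 log2 fold change was -0.71 ± 0.23 in footprints and -0.87 ± 0.24 in the ratio. Without wild-type females 1 and 3 and knockout female 2, the highest in striatal markers, it was -0.96 ± 0.26 and -1.04 ± 0.28. With both marker levels as covariates it was -0.68 ± 0.34 and -0.96 ± 0.16. With the covariates Gps1 was called in neither female footprints nor the female ratio, and Cops6 was not called in female footprints. The fits that left females out kept only 1 wild-type female each, so no calls are read from them.

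Single females also decided calls. The Gps1 footprint call was lost without wild-type female 1 (-0.84 ± 0.18) or without knockout female 1 (-0.76 ± 0.17). The Gps1 ratio call was lost without any 1 of wild-type females 1, 2 and 3 and knockout females 1 and 2, with log2 fold changes of -1.01 to -0.87. The Cops6 footprint call was kept without wild-type male 1 or 2 and lost without any other animal.

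Genes next to Gps1 were read beside it. The labels and headers do not state how strand was used in counting. No annotated gene overlaps Gps1, so the values of its neighbours cannot test that. Gps1 lies at chr11:120784272-120789102 on the plus strand of GRCm38, between Rfng, which ends at 120784207, and Dus1l, which starts at 120789201, both on the minus strand. These neighbours were chosen after their values were seen. Dus1l footprints were 23.7, 23.5 and 24.0 CPM in the females of wild type, against 25.2, 20.8 and 25.1 in those without Qtrt1, and the log2 fold change was 0.00 ± 0.14. Rfng differed by -0.02 ± 0.15. Neither neighbour had the lower level of Gps1 in knockout females, which is a description only. In the same annotation, Cops2, Cops3, Cops5 and Cops6 each overlap 1 other coding gene (Galk2, Nt5m, Cspp1 and Mcm7), and their counts carry the uncertainty about strand.

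Wild-type females and males differed in 2 subunits. All 3 wild-type females were older than both wild-type males, so sex and age cannot be told apart here. Cops6 footprints were 113 to 129 CPM in the 3 wild-type females and 165 and 200 in the 2 wild-type males, a log2 fold change of -0.58 ± 0.12 (edgeR adjusted p = 0.00731). Cops8 footprints were 21.8 to 25.4 CPM in the wild-type females, against 30.4 and 38.0 in wild-type males, a log2 fold change of -0.53 ± 0.15 (edgeR adjusted p = 0.0268). Both were lower in every wild-type female than in every wild-type male, and 2 of 9 compares with 16.5% of all genes. In wild-type input 0 of 9 passed against 14.2% of genes, and Cops2 was nearest at -0.24 ± 0.08 (edgeR adjusted p = 0.0578). Both footprint differences were not called with the marker levels as covariates. Without wild-type females 1 and 2 only wild-type female 3 was left, so no call is read from that fit. Tissue markers differed between the same groups. Choroid plexus markers were lower in all 3 wild-type females (154 to 6012 CPM) than in wild-type males (11305 and 12220), with 4 of 12 called lower. Of the striatal markers 9 of 11 were called higher in females, with a median log2 fold change of 2.07. Of the meningeal markers 6 of 10, of the hippocampal markers 4 of 12 and of the oligodendrocyte markers 1 of 8 were called lower. Of the cortical markers 2 of 8 and of the microglial markers 1 of 8 were called higher. Of the 8 astrocyte markers 1 was called higher and 1 lower. Over all 13143 genes tested, 1216 were called higher and 955 lower. Their part in the Cops6 and Cops8 differences was not tested by an independent measure. The Cops6 call was also lost without wild-type male 2, and the Cops8 call without wild-type male 1, wild-type female 1 or wild-type female 3. Gps1 was at -0.07 ± 0.16 in this comparison and was not called.

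The ligase pathway that the signalosome acts on was read from a list of 40 genes, mostly cullins, RING partners, neddylation enzymes and adaptors. The list also holds the deubiquitinase Usp15 and Cops9, a small further subunit of the signalosome that is not among the 9 described here. In female footprints 4 of 38 tested genes were called, all higher in knockout, beside 2.81% of all genes called higher and 4.25% lower. The median of the list was 0.14 on the log2 scale against 0.00 over all genes. They were Ube2m (0.51 ± 0.13), the conjugating enzyme for NEDD8, Dcun1d4 (0.48 ± 0.11) and Dcun1d5 (0.49 ± 0.13), which help load NEDD8 onto cullins, and Skp1a (0.59 ± 0.15), the adaptor of cullin 1 ligases. In female input 1 of 39 was called, beside 3.48% of all genes, namely Fbxw7, a substrate receptor, lower in knockout at -0.23 ± 0.05. In the female ratio 0 genes of the list were called, and in male footprints, input and ratio neither the list nor any other gene was called by edgeR.

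The architectural relatives of the complex were read in the same way. Of the 9 proteasome lid genes, 2 were called higher in knockout female footprints, Psmd12 (0.45 ± 0.11) and Psmd6 (0.37 ± 0.10), with a list median of 0.19. Of all genes 2.81% were called higher there. Of 12 eIF3 genes tested, 1 was called in female footprints, Eif3d, lower in knockout at -0.37 ± 0.10, beside 4.25% of all genes called lower. In female input 1 was called, Eif3k, higher at 0.23 ± 0.06, beside 3.48% of all genes called in either direction. The median over the 9 signalosome genes in female footprints was -0.02. In males 0 members of either list were called, as were 0% of all genes.

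Codons read by queuosine tRNAs were counted in 1 complete coding transcript per gene, for 17634 of the 18054 genes. They made up 11.6% of codons in Cops7a and 20.5% in Cops2, the extremes of the 9, against a median of 13.7% over all genes. Gps1 had 84 such codons of 526, 16.0%, at percentile 79.0, and Cops6 48 of 324, 14.8%, at percentile 65.4. Cops2 stood at percentile 98.7 and Cops3 at 90.9, with 17.5%. Of these codons, 56.0% ended in C in Gps1 and 39.6% in Cops2, against a median of 58.9%.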

How the data were processed

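The authors deposited raw counts per gene symbol for 20 libraries, and per the file headers one table per footprint library with coverage as counts of footprints per codon. Per the file headers these tables also give the occupancy of a codon as a ratio and the covered share of a coding sequence as a percent, and neither was used here, nor were the codon enrichment tables. Tools named in the submitters' processing notes were SAMtools 0.1.19, Bowtie 1.2.2 and 1.0.0, cutadapt 1.8.1 and Trimmomatic 0.39. For the genome build, the counting program and its strand setting, the labels and headers state nothing.

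Counts were tested with edgeR 4.0.16 in R 4.3.3 (TMM scaling, filterByExpr, quasi-likelihood F tests on group means, Benjamini-Hochberg adjustment over all genes tested, threshold 0.05). Footprints and input were fitted separately, and the ratio as the interaction of assay and genotype over all 20 libraries. CPM used TMM factors within an assay, and log2 CPM a prior count of 2. Relations between genes used permutation of animals, exact for 7 and 100000 resamples for 10, with NumPy 2.4.6 and SciPy 1.17.1. Replicate libraries of a group differed by more than sampling noise (chi-square over genes of 3.45 to 14.3 per degree of freedom), so no library was counted as a repeat. The animal number in the labels pairs footprints with input, and deviations of such pairs from their group means correlated at 0.26 to 0.55. The tests were tested on simulated data. False calls there made up clearly more than the nominal share in female footprints and slightly more in the female ratio.

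The subunits and gene lists were chosen with earlier results of these data known. Named genes were all 9 subunits, called genes of the lists (up to 6 by p-value in each), and the 5 genes most like Gps1 in each assay. Coding sequences came from GENCODE on GRCm38. Alternatives were DESeq2 1.42.0, other size factors, no filter, fits of the compared libraries alone, leaving out each animal and replicate blocks.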

Additional observations from a re-analysis of the deposited data

How the results depend on the processing

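The Gps1 log2 fold change stayed below 0 in all 18 alternatives in female footprints (-0.96 to -0.68) and in all 18 in the female ratio (-1.06 to -0.87), and was called in 13 and 10 of them. Every alternative reuses the same animals, so the shared sign is no independent evidence. The 18 include the 2 settings, described below, that kept only 1 wild-type female. With 1 animal left out at a time, 0 to 3 subunits were called in female footprints and 0 to 1 in the female ratio. The 3 were Cops2, Gps1 and Cops6, without wild-type male 1 or 2. In footprints of both sexes 0 to 2 subunits were called, and in the ratio of both sexes 0 to 1. Over all genes, the calls ran from 0 to 21 in the female ratio. They ran from 1 to 1453 in footprints of both sexes and from 0 to 167 in the ratio of both sexes. The 1453 and 167 were without wild-type male 1. In wild-type females against males 1 to 2 subunits were called in footprints. In their input it was 0 to 1, where Cops2 was called without knockout female 3.

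In footprints of both sexes Gps1 was called (1 subunit) with no filter and by DESeq2, where the calls over all genes rose from 1 to 534 and 509. In both the female footprints and the female ratio, 0 subunits were called with choroid plexus and striatum levels as covariates. In 2 further settings, the wild-type females of low choroid plexus level or the females of high striatum level were left out. Each of these kept only 1 wild-type female, so no calls are read from them. Over all genes the calls fell with the covariates too, from 928 to 1 in female footprints and from 6 to 2 in the female ratio. In footprints of wild-type females against males, 0 subunits were called with the covariates. These 3 settings were chosen after seeing the data. Of the relations between Gps1 and its partners, 1 passed on residuals from the 4 group means, against 2 before. It was a different one, Cops7a in input with a negative r of -0.80 (permutation adjusted p = 0.0469). By Spearman rho it did not pass (permutation adjusted p = 0.0729). Residuals within a group sum to 0, so the animals are not freely exchangeable and these p-values can be too small. Nothing is read from this relation. The causes were not tested.

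Same-numbered knockout and wild-type males share their age, but the labels name no shared litter, batch or day for a number. Deviations of same-numbered animals correlated at -0.21 to -0.08 in footprints and -0.21 to 0.09 in input, so the numbers were not taken as pairs. With the replicate block, 1 subunit was called in female footprints, Gps1 (-0.83 ± 0.17). The block by animal gave 2 subunits in the female ratio and 1 in the ratio of both sexes. Over all genes, the female footprint count of 928 became 308 with the replicate block, 1849 in a fit of those libraries alone and 37 (without knockout female 1) to 1545 (without wild-type male 2) with 1 animal left out.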
